A study of Mus musculus with 2 samples.

Results

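Cyclic nucleotide phosphodiesterases were followed in skeletal muscle nuclei of control mice and of mice in which a deletion of the gene of NET39, a protein of the nuclear envelope, was directed at muscle fibres. The 9 genes, Pde10a, Pde4b, Pde4d, Pde7a, Pde7b, Pde8a, Pde3a, Pde3b and Pde9a, were taken by symbol from the 27998 genes of the deposited count matrices, and 8 of the 9 reached 50 unique molecular identifiers (UMIs, each 1 captured RNA molecule) over all myonuclei. They were selected on measured values of these libraries, the CPM of each gene by class and library, so their levels and ratios are given as a description. The study sequenced RNA of single nuclei (snRNA-seq) from gastrocnemius-plantaris (GP) muscle of mice 5 months old, 3 months after tamoxifen. The Ctrl group was Net39 fl/fl without Cre, and the cKO group was HSACreERT2;Net39 fl/fl, in which the human skeletal actin promoter drives a tamoxifen-inducible Cre in muscle fibres. Both groups carried the floxed allele and both received tamoxifen. Per the paper, the allele was made in B6C3F1 zygotes and the founders were then mated to another strain. The paper describes the mice given tamoxifen as male. Each group was 1 library made from 3 pooled muscles.

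There was therefore 1 library per group and no replicate: no test between the groups could be made, and intervals are exact 95% intervals that cover counting error only. The spread between animals is unknown, and a difference between the muscles pooled and an effect of the genotype cannot be told apart. A level is given as CPM, the UMIs of a gene per 1000000 UMIs, summed over the nuclei of a class, and a log2 ratio is cKO over Ctrl. A gene was counted as higher or lower when the CPM ratio passed 1.5-fold and the gene had at least 50 UMIs over both libraries in that class.

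Phosphodiesterases hydrolyse the second messengers cAMP and cGMP and so end signals that adenylyl and guanylyl cyclases start. PDE4, PDE7 and PDE8 act on cAMP, PDE9 acts on cGMP, PDE10A acts on both, and PDE3 hydrolyses cAMP and is inhibited by cGMP. In skeletal muscle, cAMP made after beta-adrenergic stimulation activates protein kinase A, which acts on metabolism, on contraction and, through CREB proteins, on transcription.

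The Ctrl library held 3863 barcodes and 10410316 UMIs, and the cKO library 3994 barcodes and 8446070 UMIs; 3526 and 3595 nuclei were used, with medians of 2040.5 and 1611 UMIs. Malat1, a nuclear RNA, took 25.6% of the UMIs in Ctrl and 30.7% in cKO, and 5 barcodes occurred in both libraries. Of the nuclei used, 2986 in Ctrl and 3295 in cKO lay in clusters of muscle fibre nuclei (myonuclei). By their main myosin heavy chain, which had to make up 60% of at least 3 myosin UMIs, 19 and 275 were Myh7-main (slow, type I), 166 and 325 Myh2-main (IIa), 302 and 381 Myh1-main (IIx) and 1910 and 1427 Myh4-main (IIb). Class shares thus differed between the libraries, and a myonuclear cluster led by Plekhh1 held 188 Ctrl and 23 cKO nuclei. The cluster with type I markers held 193 Ctrl nuclei, 6.46% of the myonuclei, against 949 cKO nuclei, or 28.8%, most of which were not Myh7-main. It took in 10.2% of the Ctrl against 28.3% of the cKO Myh2-main nuclei, 11.9% against 28.3% of the Myh1-main and 2.57% against 5.33% of the Myh4-main nuclei, so nuclei of 1 main-myosin class lay in different clusters in the libraries. Outside the fibres, where this Cre is not directed, lay 540 and 300 nuclei, in clusters named FAP-like (fibro-adipogenic progenitors), endothelial-like, immune-like and satellite-like after their markers. The FAP-like cluster also held 4 adipocyte, 3 satellite and 2 tenocyte markers, and the endothelial-like cluster 5 smooth muscle markers. Plpp7, the gene of NET39, stood at 51.9 CPM in Ctrl against 41.8 CPM in cKO myonuclei (log2 ratio -0.31, interval -0.54 to -0.09), and in Myh4-main nuclei the log2 ratio was 0.17 (295 and 182 UMIs, interval -0.10 to 0.44). It was -2.11 in the cluster with type I markers (25 and 24 UMIs, interval -2.98 to -1.25) and -1.13 in nuclei of mixed myosins (27 and 17 UMIs, interval -2.09 to -0.20). The assay reads 3′ ends and the floxed part is the first exon, so this count does not check the deletion.

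Pde10a is a gene of 461 kb on chromosome 17 (GRCm38, 8525372 to 8986648, plus strand). Start-site windows are shown for the 3 genes that were lower in cKO by more than 1.5-fold in both Myh2-main and Myh1-main nuclei, Pde10a, Pde7b and Pde8a. Each runs from 250 bases before to 50 bases after a RefSeq start on GRCm38.p6, read on the gene's strand, and capitals mark CAGCTG, an E-box of the kind bound by myogenic bHLH factors. The 2 Pde10a windows and the Pde7b window lie inside the annotated span of their genes, at alternative starts, and a 3′ assay does not show which start was used. The Pde8a window ends at 81213314, before the annotated start of its gene at 81213596. Its last 50 bases were in 0 of the 3 annotated Pde8a transcripts.
Pde10a, first window, chr17:8801495-8801794 (+): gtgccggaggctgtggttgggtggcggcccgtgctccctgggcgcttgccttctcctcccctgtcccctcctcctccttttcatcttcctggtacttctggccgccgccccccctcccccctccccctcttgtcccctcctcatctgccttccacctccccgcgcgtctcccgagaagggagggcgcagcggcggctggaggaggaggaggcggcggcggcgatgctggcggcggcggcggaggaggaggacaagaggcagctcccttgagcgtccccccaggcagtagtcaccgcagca
Pde10a, second window, chr17:8849735-8850034 (+): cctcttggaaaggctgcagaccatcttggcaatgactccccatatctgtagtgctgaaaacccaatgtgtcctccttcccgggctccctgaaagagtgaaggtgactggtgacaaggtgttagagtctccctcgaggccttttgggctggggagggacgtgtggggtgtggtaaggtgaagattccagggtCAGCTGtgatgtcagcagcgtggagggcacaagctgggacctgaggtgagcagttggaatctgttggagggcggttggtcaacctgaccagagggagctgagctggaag
Pde7b, chr10:20548279-20548578 (-): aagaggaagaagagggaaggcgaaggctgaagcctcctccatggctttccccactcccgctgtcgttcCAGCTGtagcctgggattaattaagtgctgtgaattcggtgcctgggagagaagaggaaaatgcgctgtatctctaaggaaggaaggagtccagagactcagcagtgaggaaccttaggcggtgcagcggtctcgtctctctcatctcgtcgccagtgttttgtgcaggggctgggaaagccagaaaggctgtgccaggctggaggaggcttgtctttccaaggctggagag
Pde8a, chr7:81213015-81213314 (+): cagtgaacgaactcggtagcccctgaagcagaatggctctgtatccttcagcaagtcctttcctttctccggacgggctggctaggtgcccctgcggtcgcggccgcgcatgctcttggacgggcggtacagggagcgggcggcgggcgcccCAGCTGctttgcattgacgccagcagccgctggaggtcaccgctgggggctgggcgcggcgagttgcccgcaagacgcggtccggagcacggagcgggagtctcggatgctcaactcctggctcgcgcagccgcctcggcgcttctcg

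RefSeq windows matched 5 of the 9 genes, with 9 windows in all. CAGCTG occurred in 5 of these 9 windows, against 16.3% of 32851 windows of the annotation, and each of the 5 matched genes had it in at least 1 window. It began at base 192 of the second Pde10a window, 59 bases before the start, at base 69 of the Pde7b window and at base 153 of the Pde8a window; the first Pde10a window had none. The cAMP response element TGACGTCA was in none of the 9 windows and in 1.79% of all windows. Its shorter form TGACG, read on both strands, was in 2 of the 9, the Pde8a window and 1 Pde4b window, against 20.8% of all. The NR4A element AAAGGTCA, present in 1.51% of all windows, and the MEF2 site, present in 3.19%, were in none. The half-site AGAACA of the glucocorticoid receptor was in 2 windows, both of Pde4b, against 19.0% of all. A match describes letters in a window and does not show binding.

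Pde10a, the dual-specificity enzyme, differed more between the libraries over all myonuclei than any other member with at least 50 UMIs. It stood at 548 CPM in Ctrl, from 4306 UMIs, and at 114 CPM in cKO, from 772 UMIs. The cKO level was 4.79-fold lower (interval 4.44 to 5.18; log2 ratio -2.26), which ranked it 32nd from the lowest of the 9269 genes with at least 50 UMIs. Scaling by the median ratio of all genes, which was -0.08, gave -2.18, and the ratio without the Plekhh1-led cluster was -2.18 as well. Without the cluster with type I markers it was -3.08, and in the classes that cluster crosses it was -1.41 in Myh2-main, -2.70 in Myh1-main and -3.72 in Myh4-main nuclei.

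Every main-myosin class had less Pde10a in cKO, by different amounts. Myh4-main nuclei, of the fastest fibres, stood at 517 CPM in Ctrl (2777 UMIs) against 61.6 CPM in cKO (181 UMIs), 8.40-fold lower, with a log2 ratio of -3.07 (interval -3.30 to -2.85). In Myh1-main nuclei the level was 806 CPM in Ctrl against 207 CPM in cKO, with a log2 ratio of -1.96 (interval -2.21 to -1.72). Myh7-main nuclei stood at 420 CPM in Ctrl against 105 CPM in cKO (log2 ratio -2.00, interval -2.79 to -1.14), but the Ctrl level rests on 17 UMIs in 19 nuclei, of which 5 held a UMI and 1 held 8. Other class rules gave -0.66 and -3.19. Myh2-main nuclei differed least, at 244 CPM in Ctrl (100 UMIs) against 117 CPM in cKO (80 UMIs), with a log2 ratio of -1.06 (interval -1.50 to -0.62). That Myh2-main value depended on how nuclei were assigned. When myosins were read from 500 UMIs per nucleus, so that both libraries were assigned at 1 depth, the ratio was -0.018 over 59 Ctrl nuclei with 26 UMIs and 121 cKO nuclei with 42 UMIs. With 80% of 5 myosin UMIs required it was -0.51. A single cKO Myh2-main nucleus held 16 of the 80 UMIs. The nuclei with no main myosin were lower too, at -1.62 where several myosins were mixed and at -2.11 where myosin UMIs were too few.

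**Figure D1:**
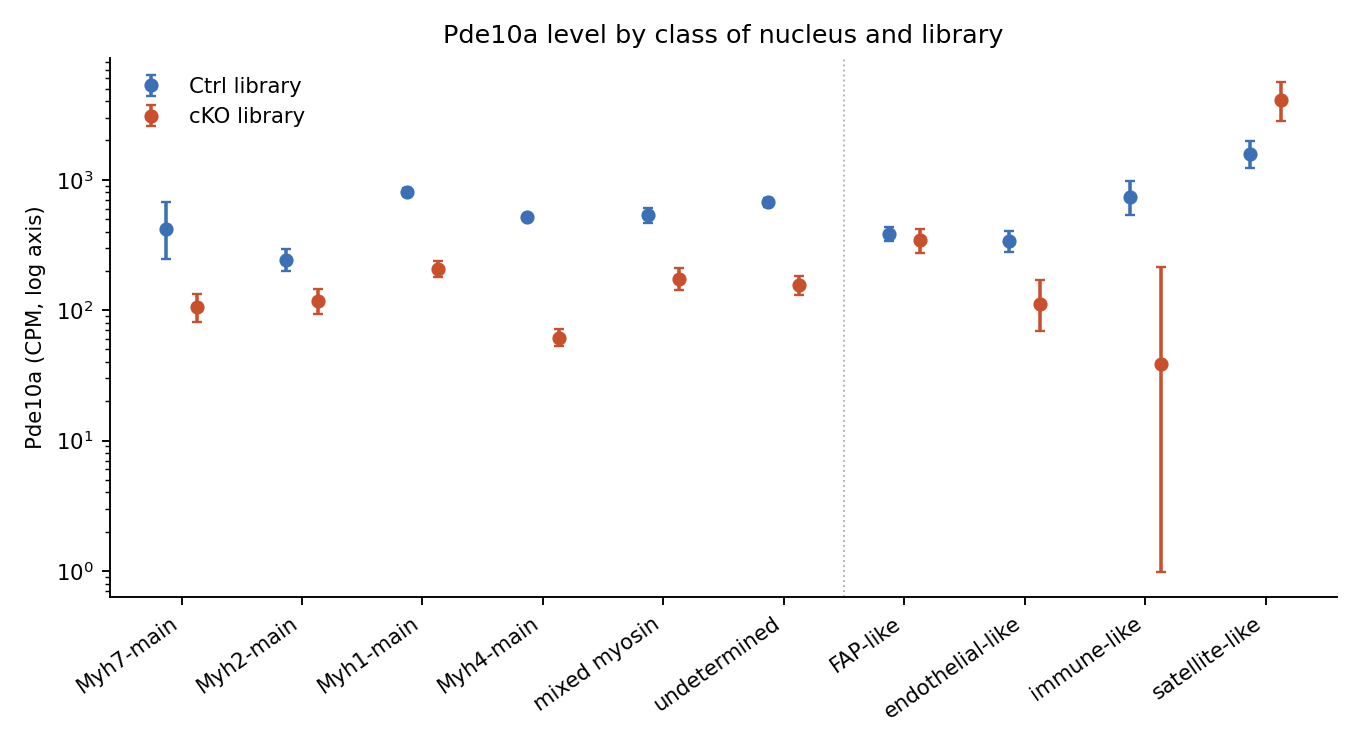
Pde10a level in CPM (log axis) for each class of nucleus, in the Ctrl and cKO libraries; points are class sums and bars are exact 95% counting intervals. Myh4-main nuclei stood at 517 CPM in Ctrl against 61.6 CPM in cKO, while FAP-like nuclei stood at 385 and 343 CPM.

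The order of the classes differed between the libraries. In Ctrl, Pde10a was highest in Myh1-main nuclei, followed by Myh4-main nuclei, nuclei outside the fibres (443 CPM), Myh7-main and Myh2-main nuclei. The intervals of the last 3 overlapped from neighbour to neighbour and those of the first 3 did not. In cKO, nuclei outside the fibres were highest (304 CPM), followed by Myh1-main, Myh2-main, Myh7-main and Myh4-main nuclei; only Myh2-main and Myh7-main overlapped among neighbours. The Myh4-main level was 2.12-fold higher than the Myh2-main level in Ctrl (interval 1.74 to 2.62) and 1.90-fold lower in cKO (interval 1.44 to 2.48). Myh1-main nuclei were above Myh2-main nuclei in both libraries, by 3.30-fold in Ctrl and 1.77-fold in cKO.

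Within the fibre clusters, Pde10a was lower in all 7. The cluster led by Myh4 stood at 498 CPM in Ctrl against 42.6 CPM in cKO, and the Plekhh1-led cluster at 964 and 50.9 CPM, the latter from 4 UMIs in 23 nuclei. The cluster led by Sorcs1 stood at 338 CPM in Ctrl (289 UMIs) against 23.9 CPM in cKO (12 UMIs). The ratio nearest 0 among the 7 was that of the cluster with type I markers, 805 CPM in Ctrl against 217 CPM in cKO (log2 ratio -1.89). Nuclei with myotendinous junction markers had 632 and 150.0 CPM, and nuclei with neuromuscular junction markers 556 and 138 CPM.

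Fewer cKO myonuclei had a Pde10a UMI. With each nucleus thinned to 1000 UMIs, 912 of 2942 Ctrl myonuclei had at least 1 Pde10a UMI, or 31.0% (Clopper-Pearson interval 29.3 to 32.7), and 199 of 2846 cKO myonuclei, or 6.99% (6.08 to 7.99); 44 Ctrl and 449 cKO nuclei were shallower and left out. Without thinning the shares were 48.9% and 11.8%. Nuclei with 2 or more UMIs made up 12.9% in Ctrl and 1.90% in cKO, and nuclei with 3 or more 5.95% and 0.457%. Pde10a UMIs were unevenly spread over nuclei in both libraries: the variance over the mean was 2.02 in Ctrl and 1.85 in cKO, against 1.21 and 1.33 for Pde4b. By class, the thinned shares were 29.6% and 3.55% in Myh4-main, 44.5% and 9.92% in Myh1-main, and 17.2% and 6.53% in Myh2-main nuclei. Split by depth, the log2 ratio was -3.37 for myonuclei of 500 to 1000 UMIs, -2.56 for 1000 to 2000, -2.44 for 2000 to 4000 and -1.57 above 4000. It was thus negative at every depth, with a cKO level of 78.8 CPM in the shallowest and 187 CPM in the deepest nuclei.

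**Figure D2:**
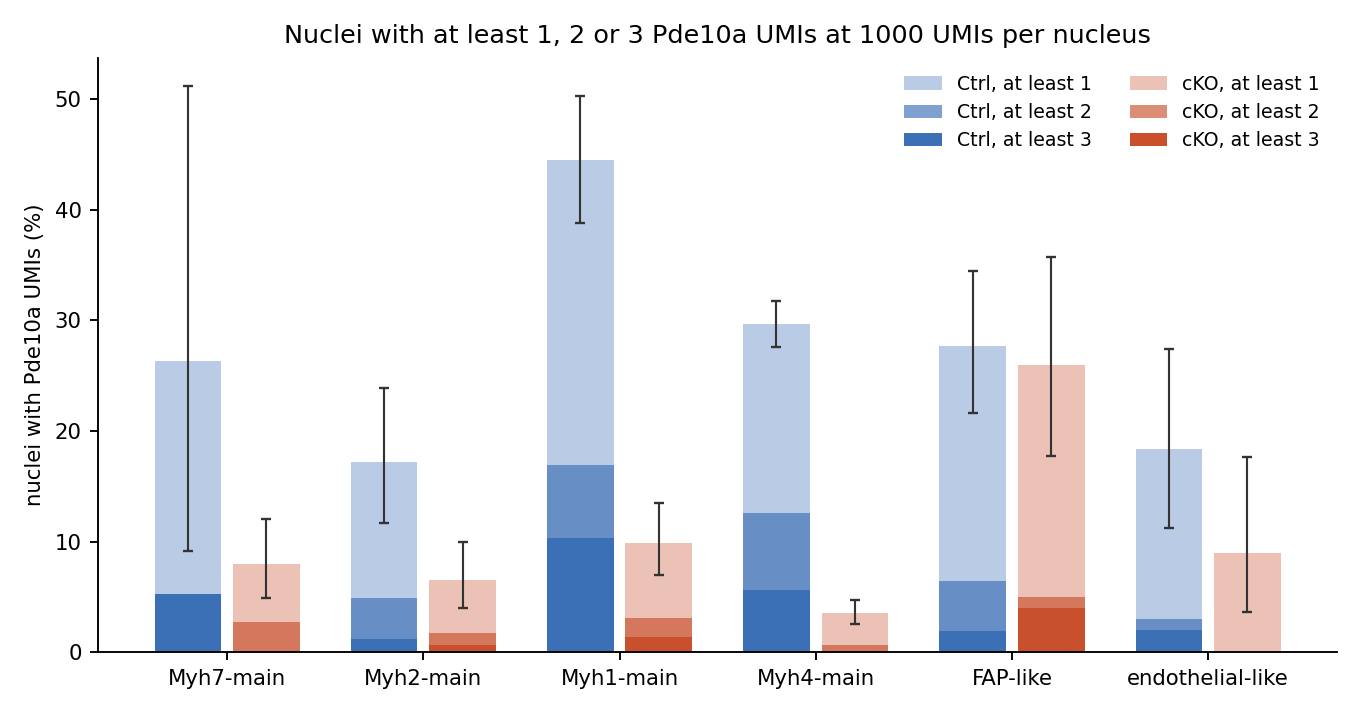
Percentage of nuclei with at least 1, 2 or 3 Pde10a UMIs after thinning to 1000 UMIs per nucleus, by class and library; bars on the shares with at least 1 UMI are exact 95% binomial intervals. In Myh4-main nuclei the share with at least 1 UMI was 29.6% in Ctrl and 3.55% in cKO, and in FAP-like nuclei 27.7% and 26.0%.

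Outside the fibres Pde10a was lower by less than 1.5-fold in sum: 443 CPM in Ctrl (477 UMIs) against 304 CPM in cKO (148 UMIs), with a log2 ratio of -0.54 (interval -0.82 to -0.27). It passed 1.5-fold with doublets kept (-0.84) and at 1000 UMIs or more per nucleus (-0.83), and stood at -0.13 as a mean of single-nucleus CPM. The clusters that make up this sum differed in direction. FAP-like nuclei stood at 385 and 343 CPM (log2 ratio -0.17, interval -0.53 to 0.19), and their thinned shares with a UMI were 27.7% and 26.0%. Endothelial-like nuclei stood at 338 and 111 CPM (log2 ratio -1.60, 113 and 21 UMIs), and immune-like nuclei at 738 and 38.5 CPM, the latter a single UMI. In the Ctrl immune-like cluster 1 nucleus held 18 of the 46 UMIs. Satellite-like nuclei, which express Pax7 and Calcr, had the highest Pde10a level of any cluster in both libraries, 1570 CPM in Ctrl (75 UMIs, 22 nuclei) against 4055 CPM in cKO (36 UMIs, 9 nuclei), with a log2 ratio of 1.37 (interval 0.75 to 1.96). In this cluster 16 of 22 Ctrl and 8 of 9 cKO nuclei had at least 1 UMI, and the cKO nuclei were shallow, with a median of 727 UMIs.

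RNA freed from fibres can give UMIs in droplets of other nuclei. Ttn, which encodes the giant sarcomere protein titin, was used as a measure of fibre RNA outside the fibres. Empty droplets were not examined, so free RNA and remaining doublets were not told apart. Nuclei outside the fibres held Ttn at 47.2% of the myonuclear level in Ctrl and 48.4% in cKO. Pde10a outside the fibres stood at 80.9% of the myonuclear level in Ctrl and at 266% in cKO. In FAP-like nuclei the Pde10a level was 70.2% and 300% of the myonuclear level, where Ttn was at 36.6% and 35.7%, and in satellite-like nuclei 286% and 3546%, where Ttn was at 82.6% and 42.4%. In endothelial-like nuclei of Ctrl both genes stood near the same share, 61.6% for Pde10a and 61.8% for Ttn, and in cKO at 97.3% and 67.3%. In Ctrl endothelial-like nuclei Pde10a thus did not exceed the share of Ttn, and the part of free RNA in these values was not tested. In the other direction, the 9 FAP markers summed to 84.5 and 44.9 CPM in Ctrl and cKO myonuclei, against 4533 and 3126 CPM outside the fibres. The 7 satellite markers summed to 15.8 and 19.6 CPM in myonuclei, against 117 and 84.3 CPM outside. No marker of either list was at 0 in either library, and their part in the Pde10a values was not tested.

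Among the cAMP-specific enzymes, Pde4d was by far the most abundant member, and its sum over myonuclei was lower in cKO. It stood at 7655 CPM in Ctrl against 4565 CPM in cKO, with a log2 ratio of -0.75 (interval -0.77 to -0.73). Within each main-myosin class the difference was smaller: 9169 and 7097 CPM in Myh4-main (log2 ratio -0.37), 3296 and 2936 in Myh1-main (-0.17), 1942 and 1684 in Myh2-main (-0.21) and 2323 and 2136 in Myh7-main nuclei (-0.12, an interval of -0.42 to 0.20). It was not smaller in nuclei of mixed myosins (-0.76, 2232 and 1817 UMIs) or with too few myosin UMIs (-1.11, 5157 and 3085 UMIs). In the cluster with type I markers the ratio was -0.81. The sign turned in Myh2-main nuclei with classes read at 500 UMIs (0.36) and in Myh7-main nuclei with 80% of 5 myosin UMIs required (0.54). Split by depth, the ratio over all myonuclei was 0.26 for 500 to 1000 UMIs, from 44 Ctrl and 449 cKO nuclei. It was -0.65 for 1000 to 2000, -0.71 for 2000 to 4000 and -0.98 above 4000. Myh4-main nuclei had the highest Pde4d level in both libraries and made up more of the Ctrl library than of the cKO library. With the classes weighted by their Ctrl shares, the ratio over all myonuclei was -0.42, within 1.5-fold, and without the cluster with type I markers it was -0.47. Outside the fibres Pde4d stood at 3779 and 2392 CPM (log2 ratio -0.66), and its share of the myonuclear level there, 49.4% in Ctrl and 52.4% in cKO, was close to that of Ttn. The call outside the fibres was kept in 2 of 5 alternatives, and the mean of single-nucleus CPM gave -0.37.

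Pde4b, which acts on the same messenger, was near the same level in both libraries, at 408 CPM in Ctrl against 385 CPM in cKO (log2 ratio -0.08). With Ctrl class shares its sign turned, to 0.24, and within classes it was 484 and 598 CPM in Myh4-main (0.31, interval 0.22 to 0.39), 207 and 245 in Myh1-main (0.24) and 85.4 and 108 in Myh2-main nuclei (0.34, interval -0.26 to 0.96). Without the cluster with type I markers the sum over myonuclei was 0.22, and the Myh2-main value passed 1.5-fold, at 0.61. Both Pde4b and Pde4d were thus highest in Myh4-main and lowest, or next to lowest, in Myh2-main nuclei. In Myh7-main nuclei Pde4b stood at 24.7 CPM in Ctrl, which is 1 UMI, and at 198 CPM in cKO (121 UMIs), a ratio of 8.03-fold with a counting interval of 1.41 to 320. Outside the fibres it stood at 263 and 245 CPM. Among the other groups of myonuclei, some Pde4b ratios had intervals below 0. These were nuclei with too few myosin UMIs (-0.48), the cluster with type I markers (-0.45) and the Plekhh1-led cluster (-0.88, 272 and 26 UMIs). The clusters led by Myh4 (0.45) and Sorcs1 (0.40) had intervals above 0.

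**Figure D3:**
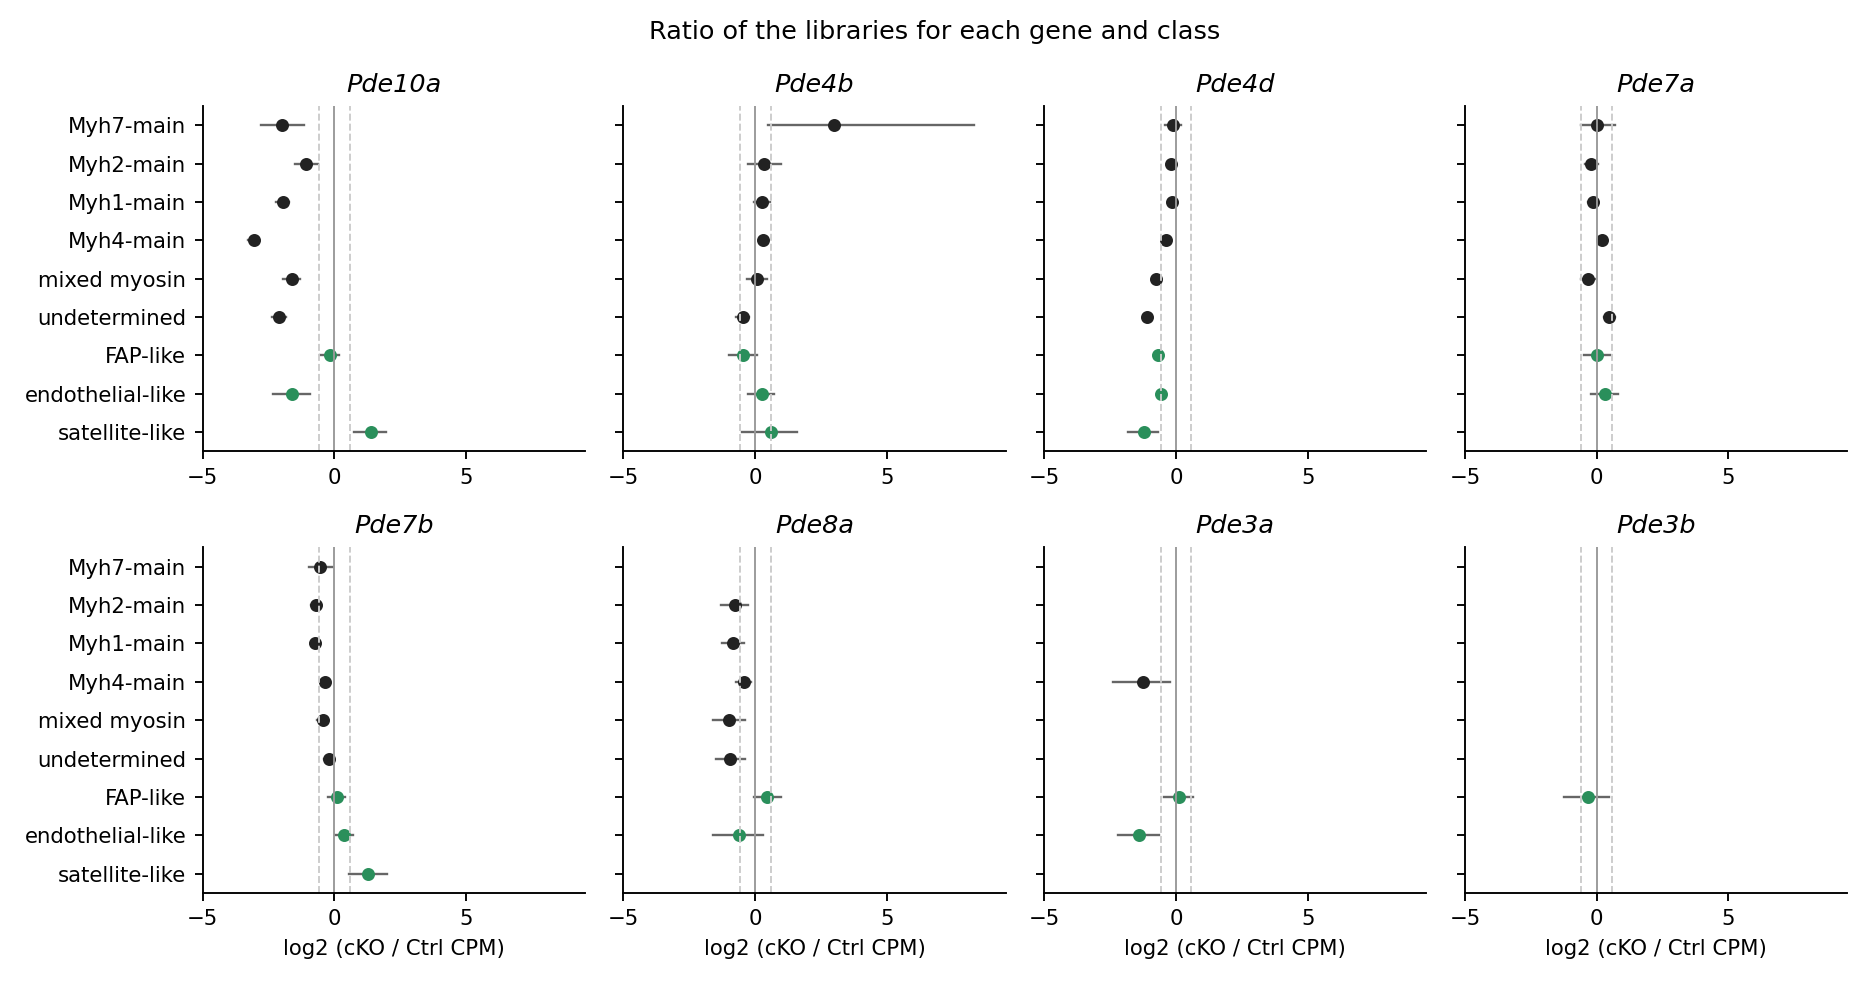
Log2 ratio of cKO to Ctrl CPM for 8 phosphodiesterase genes (panels) by class of nucleus (vertical axis), with exact 95% counting intervals as lines. Dashed lines mark 1.5-fold. Classes under 50 UMIs over both libraries have no point, and immune-like nuclei are not shown for any gene. Pde10a lay between -1.06 and -3.07 in the main-myosin classes and at 1.37 in satellite-like nuclei, and Pde7b between -0.35 and -0.72 and at 1.29.

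The PDE7 genes, both cAMP-specific, went apart. Pde7a was 420 CPM in Ctrl against 484 CPM in cKO myonuclei (log2 ratio 0.21, interval 0.14 to 0.28), with -0.20 in Myh2-main, -0.15 in Myh1-main, 0.03 in Myh7-main and 0.21 in Myh4-main nuclei, none past 1.5-fold; the Myh1-main value was 0.05 without the cluster with type I markers. Pde7b was 694 and 574 CPM (-0.27) and its ratio was negative in each main-myosin class: 1190 and 728 CPM in Myh2-main (-0.71, interval -0.89 to -0.53), 979 and 593 in Myh1-main (-0.72, interval -0.89 to -0.56), 1112 and 769 in Myh7-main (-0.53) and 593 and 465 in Myh4-main nuclei (-0.35). In both libraries Myh2-main and Myh7-main nuclei led for Pde7b with overlapping intervals, and Myh4-main nuclei were the lowest of the 4 classes. Outside the fibres Pde7b stood at 512 and 578 CPM (0.17, interval -0.04 to 0.38), and in satellite-like nuclei at 1151 and 2816 CPM (1.29, 55 and 25 UMIs). Pde7b was thus past 1.5-fold on the low side in Myh2-main and Myh1-main nuclei and within 1.5-fold in the other main-myosin classes. It was past 1.5-fold on the high side in satellite-like nuclei. On the low side were also immune-like nuclei (-1.71, 47 and 6 UMIs) and the Plekhh1-led cluster (-1.66, 358 and 20 UMIs). The Myh2-main value lost its call in 3 of 8 alternatives and stood at -0.53 with Malat1 and mitochondrial genes left out of the total. The Myh1-main value lost it without the cluster with type I markers, at -0.55.

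Pde8a, a cAMP enzyme of high affinity, was 86.2 CPM in Ctrl against 60.3 CPM in cKO myonuclei (log2 ratio -0.52, interval -0.70 to -0.34). It was lower by more than 1.5-fold in Myh2-main nuclei, 161 and 93.5 CPM (-0.78), and in Myh1-main nuclei, 167 and 93.8 CPM (-0.83, interval -1.25 to -0.43). These calls were lost in 3 of 8 alternatives for Myh2-main nuclei, with -0.11 without the cluster with type I markers and -0.27 when 80% of 5 myosin UMIs were required, and in 1 of 8 for Myh1-main nuclei, with -0.37 when classes were read at 500 UMIs. In Myh4-main nuclei it was 63.7 and 46.9 CPM (-0.44), the lowest level in both libraries, with intervals that overlapped those of Myh7-main nuclei. Outside the fibres it was 131 and 150.1 CPM, with an interval of the log2 ratio from -0.23 to 0.61.

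Pde3a, Pde3b and Pde9a had higher levels in CPM outside the fibres than in myonuclei. Pde3a, the PDE3 form of vascular smooth muscle, heart and platelets, stood at 9.29 CPM in Ctrl against 3.85 CPM in cKO myonuclei (73 and 26 UMIs, log2 ratio -1.27, interval -1.98 to -0.61; in Myh4-main nuclei -1.24 from 43 and 10 UMIs) and at 193 and 138 CPM outside. In the same myonuclei the 9 FAP markers summed to 84.5 and 44.9 CPM and the 10 endothelial markers held 314 and 169 UMIs in sum, where 0 of the 10 were at 0 in Ctrl and 1 in cKO, and their part in the Pde3a value was not tested. Endothelial-like nuclei had 263 and 101 CPM of it (-1.39) and FAP-like nuclei 149 and 160 CPM. The clusters with myotendinous and neuromuscular junction markers each held 14 Ctrl and 0 cKO UMIs, under the minimum of 50, and no fold is given for them. Pde3b, the form of adipocytes and liver, stood at 4.84 and 5.18 CPM in myonuclei (38 and 35 UMIs) and at 79.9 and 65.8 CPM outside, with 369 and 347 CPM in immune-like nuclei from 23 and 9 UMIs. Pde9a, the cGMP enzyme, had 2 UMIs in Ctrl and 0 in cKO myonuclei, and 14 and 6 UMIs outside; no fold is given for it.

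The genes were set beside each other per length, although UMIs of a 3′ assay need not grow with exon length, so the order depends on the scale. In CPM per kb of exon over all myonuclei, Pde4d led with 638 in Ctrl and 380 in cKO. In Ctrl it was followed by Pde7b (55.7), Pde7a (54.2), Pde10a (42.7), Pde4b (38.6) and Pde8a (21.3). In cKO the order was Pde7a (62.5), Pde7b (46.1), Pde4b (36.4), Pde8a (14.9) and Pde10a (8.90). On this scale Pde10a was above Pde4b and Pde8a in Ctrl and below both in cKO, while in plain CPM the cKO level of Pde10a (114 CPM) was above that of Pde8a (60.3 CPM). Pde3a, Pde3b and Pde9a were the lowest in both libraries. Outside the fibres Pde10a stood at 34.5 and 23.7, below Pde4d and Pde7b in both libraries.

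**Figure D4:**
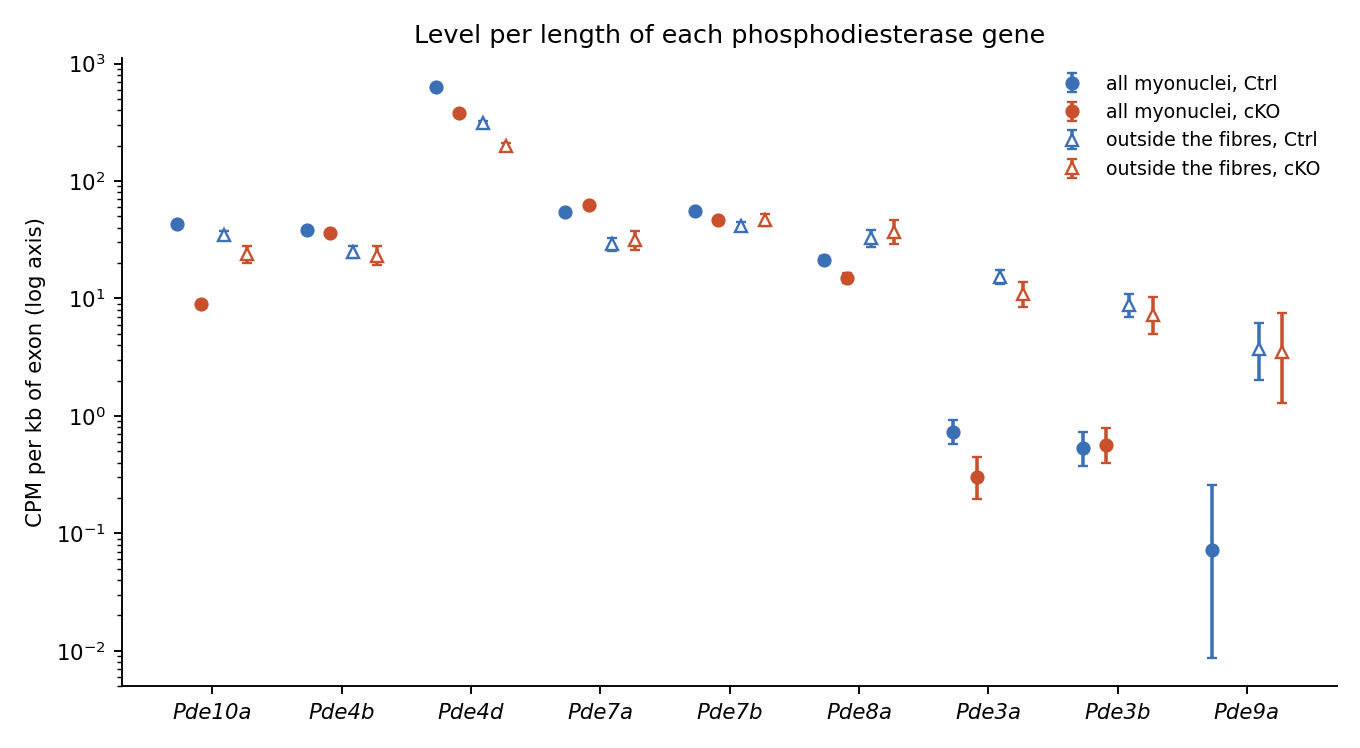
Level per length of each phosphodiesterase gene, in CPM per kb of exon (log axis), for myonuclei and nuclei outside the fibres of each library, with exact 95% counting intervals as bars; Pde9a, at 0 in cKO myonuclei, has no point there. Over myonuclei Pde10a went from 42.7 in Ctrl to 8.90 in cKO, Pde4d from 638 to 380 and Pde7a from 54.2 to 62.5.

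Counted at 1.5-fold, the members lay more often on the low side, and the share of all genes past the same limit is given beside each count. Over all myonuclei 3 of the 8 members with at least 50 UMIs were lower (Pde10a, Pde4d, Pde3a) and 0 higher, where 10.3% of 9269 genes were lower and 7.47% higher. In Myh2-main nuclei 3 of 6 were lower and 0 higher (14% and 5.61% of all genes), and in Myh1-main nuclei 3 of 6 and 0 (10.2% and 7.38%). In both classes the 3 were Pde10a, Pde7b and Pde8a, of which Pde10a in Myh1-main nuclei kept the call under all 8 alternatives. In Myh4-main nuclei 2 of 7, Pde10a and Pde3a, were lower and 0 higher (8.96% and 5.88%), and outside the fibres 1 of 8, Pde4d, was lower and 0 higher (13% and 5.89%). In Myh7-main nuclei, with 19 Ctrl nuclei, 23.7% of genes were past the limit on the low and 23.3% on the high side, and Pde10a of 5 members was lower and Pde4b higher. The median log2 ratio of the members was -0.39 over all myonuclei against -0.08 for all genes, and -0.37 against -0.04 in Myh4-main nuclei. Because the genes were picked with these ratios known, nothing follows from the counts about phosphodiesterases as a family.

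Lists of the other genes of cyclic nucleotide signalling were set by textbook role, with earlier results of these libraries known, so their counts are a description too. For all lists the share of all genes past 1.5-fold over myonuclei was 7.47% higher and 10.3% lower. Of 15 other phosphodiesterases, 5 reached 50 UMIs over all myonuclei and 1 was lower, Pde4a, at 148 CPM in Ctrl against 97.8 CPM in cKO (log2 ratio -0.60). In the classes where it had at least 50 UMIs Pde4a was within 1.5-fold, at -0.26 in Myh4-main, -0.46 in Myh1-main and -0.43 in Myh2-main nuclei, and in Myh7-main nuclei the ratio was -3.04 from 6 and 11 UMIs. Of 16 cyclases 5 reached it and 2 were lower: Adcy2, an adenylyl cyclase, at 857 and 520 CPM (-0.72), and Gucy1a2, a subunit of soluble guanylyl cyclase, at 12.7 and 7.85 CPM (-0.70). Gucy1a2 held 177 and 81 UMIs outside the fibres (0.02), and the part in its value of the FAP markers, at 84.5 and 44.9 CPM in myonuclei, was not tested. Adcy2 was lower in Myh1-main (-1.03), Myh2-main (-0.75) and Myh4-main nuclei (-0.59). It was within 1.5-fold outside the fibres (-0.54) and in Myh7-main nuclei (0.12, from 16 and 262 UMIs). None of the 4 receptors and G proteins that reached it, of 10 anchoring proteins or of 8 CREB family genes was past 1.5-fold over all myonuclei. Within single classes each of these lists had calls, with the share of all genes given as a percentage. Higher were Calcrl, 1 of 3 receptors and G proteins in Myh4-main (1.11, 27 and 32 UMIs, 5.88%), and Crem, 1 of 6 CREB family genes in Myh1-main nuclei (0.86, 38 and 76 UMIs, 7.38%). Lower were Akap1, 1 of 7 anchoring proteins in Myh2-main (-0.72, 84 and 85 UMIs, 14%), and 1 of 9 in Myh1-main nuclei (10.2%). In Myh7-main nuclei 1 of 1, 1 of 5 and 2 of 5 genes of these lists in turn were lower (23.7%). Outside the fibres 1 of 4 receptors and G proteins and 1 of 7 CREB family genes were lower (13%). Genes were named after their values were seen.

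Among 12 effectors with at least 50 UMIs, 3 were higher and 2 lower, where 7.47% of all genes were higher and 10.3% lower. Higher were Rapgef4, a cAMP-activated exchange factor, at 3.18 and 11.6 CPM (log2 ratio 1.86), Pkia, an inhibitor of protein kinase A, at 162 and 293 CPM (0.86), and Prkar1a, a regulatory subunit of the kinase, at 23.2 and 35.3 CPM (0.61). Lower were Prkacb, a catalytic subunit, at 127 and 68.9 CPM (-0.89), and Pkib, another inhibitor, at 5.22 and 2.52 CPM (-1.05). The Rapgef4 value rests on 25 and 78 UMIs and the Pkib value on 41 and 17 UMIs. Within classes Pkia was higher in Myh1-main nuclei (1.23) and in Myh7-main nuclei (1.59, from 4 and 182 UMIs), and within 1.5-fold in Myh2-main (0.53) and Myh4-main nuclei (0.47). Prkar1a was higher in Myh1-main nuclei (0.68, 22 and 39 UMIs) and within 1.5-fold in Myh4-main nuclei (0.49). Prkacb was lower in Myh1-main (-1.28) and Myh4-main nuclei (-0.71) and outside the fibres (-1.05). In Myh2-main nuclei Prkacb was within 1.5-fold (-0.21). Of the effectors, 0 of 10 were higher and 1 lower in Myh4-main nuclei (5.88% and 8.96% of all genes), 3 of 8 and 2 in Myh1-main (7.38% and 10.2%), 0 of 7 and 1 in Myh2-main (5.61% and 14%), 2 of 4 and 2 in Myh7-main (23.3% and 23.7%) and 0 of 7 and 1 outside the fibres (5.89% and 13%).

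Of 12 genes known to respond to cAMP, 9 reached 50 UMIs, 5 were higher and 0 lower (7.47% and 10.3% of all genes), with a median log2 ratio of 1.21 against -0.08 for all genes. The orphan nuclear receptors Nr4a2 and Nr4a3 stood at 1.15 and 25.3 CPM (4.47, the Ctrl level from 9 UMIs) and at 10.9 and 55.4 CPM (2.34). Fos, an immediate early transcription factor, stood at 8.91 and 35.4 CPM (1.99) and Sik1, a salt-inducible kinase, at 9.68 and 31.4 CPM (1.70). The remaining one, Nr4a1, outside the rule for naming and named after its value was seen, stood at 29.4 and 67.8 CPM (1.21). In Myh4-main nuclei 4 of 8 were higher and 0 lower (5.88% and 8.96% of all genes), and in Myh1-main nuclei 3 of 5 and 0 (7.38% and 10.2%). In Myh2-main nuclei 1 of 2 was higher and 1 lower (5.61% and 14%), and in Myh7-main nuclei the 1 gene with enough UMIs was within 1.5-fold, at -0.57. Outside the fibres 1 of 4 was higher and 2 lower (5.89% and 13%), with Fos at -1.10. These genes respond to many signals besides cAMP, and their relation to Pde10a was not tested.

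**Figure D5:**
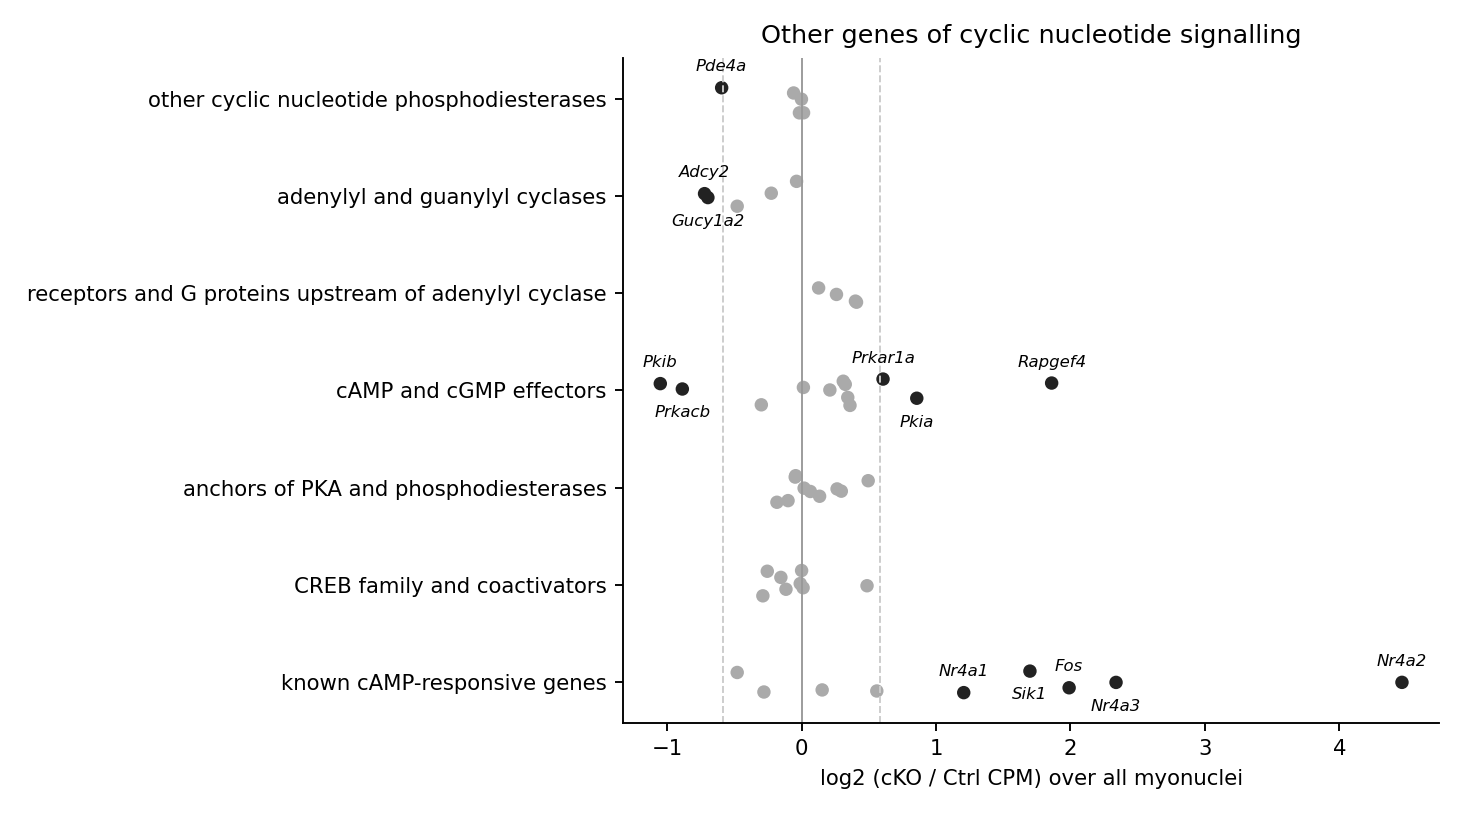
Log2 ratio of cKO to Ctrl CPM over all myonuclei for the genes with at least 50 UMIs of each list of cyclic nucleotide signalling; each point is 1 gene, black where past 1.5-fold, and dashed lines mark 1.5-fold in either direction. The list of cAMP-responsive genes has 5 points beyond the upper line, with Nr4a2 at 4.47, and the list of anchoring proteins has none beyond either line.

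The genes whose levels followed each member most closely were found by Pearson's r of log2(CPM + 10) over 15 class-by-library units, among 3747 genes. The units share 2 libraries, their depth and their free RNA, so r is a description. For Pde10a the closest were Tbc1d5 (r = 0.85), Vps13a (0.85), Rps6ka5 (0.85), Erdr1 (0.83) and Srek1 (0.82). Of these Rps6ka5, the kinase MSK1, stood at 144 CPM in Ctrl against 68.9 CPM in cKO myonuclei (log2 ratio -1.06) and at -1.44 in Myh4-main nuclei. Tbc1d5 stood at -0.31 and Srek1 at -0.38 over all myonuclei, within 1.5-fold, so a high r did not mean a ratio like that of Pde10a. Pde4d was closest to Slc38a4, an amino acid transporter (0.95, with 331 and 126 CPM, -1.39), and to Cdh4 (0.95). For Pde7a, Neb, the gene of the sarcomere protein nebulin, had an r of 0.95. Pde4b was closest to Phkb (0.92) and Xpr1 (0.91), Pde7b to Pcnt (0.86) and 2810004N23Rik (0.80), and Pde8a to Klhdc10 (0.86) and Fam120b (0.86). For the genes with higher levels outside the fibres the closest were Pdzd2 (0.95) and Nbea (0.94) for Pde3a, and Ap2a2 (0.97) and Sec16a (0.96) for Pde3b. For Pde9a, with 2 UMIs in myonuclei and 20 outside, Stox2 (0.91) and Inpp4a (0.89) came first, but these r rest on too few molecules to describe a pattern.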

How the data were processed

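Per the labels and the study's methods, the authors pooled 3 muscles per group, sorted nuclei, made 10x Genomics 3′ libraries and aligned them with Cell Ranger 3.1.0 to mm10 with default parameters; whether intronic reads were counted is not given in the sources used here. The deposited values are raw UMI counts per gene and barcode. The members and gene lists were chosen with earlier results of these data known.

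Nuclei with at least 500 UMIs, at least 100 genes and under 10% mitochondrial UMIs were kept (3833 Ctrl, 3908 cKO). Scrublet in scanpy 1.11.5 called 0 doublets in either library, so the 8% of nuclei with the highest scores were removed (307 and 313), with median UMIs of 3418 and 2666. Seurat 5.3.0 (SCTransform 0.4.2, 3000 features, 25 components, resolution 0.3) gave the clusters. Those outside the fibres were named when at least 3 markers of a list were detected, at 2-fold over all other nuclei, and the remaining 7 were called myonuclear by default, with 0 to 2 myonuclear markers each by the same measure. UMIs were summed per class and library. With 1 library per group there was no test: intervals were exact Poisson for levels, Clopper-Pearson for shares and conditional binomial for ratios (scipy 1.17.1), with counting error only, and the ratio code was tested on simulated data.

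Named were all 9 members, up to 4 genes per direction and pathway list past 1.5-fold, and the 5 genes (Pde10a) or 2 genes (others) of highest r among those with at least 500 UMIs over units of at least 20 nuclei. Alternatives changed the nucleus filters, scaling, myosin rule, class weights, depth and thresholds; leaving out the Plekhh1-led cluster or the one with type I markers was chosen after seeing the data. Exon lengths and spans came from GENCODE M21. One gene that the rule for r names is not reported here.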

Additional observations from a re-analysis of the deposited data

Results flagged for a closer look

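The log2 ratio of cKO to Ctrl for Pde10a had opposite signs in different classes, with intervals apart from 0 on both sides, and so did that for Pde7b; the difference between classes was not tested, since each class comes from the same pair of libraries. Pde10a was higher in cKO in satellite-like nuclei (1.37) and lower in Myh7-main (-2.00), Myh2-main (-1.06), Myh1-main (-1.96), Myh4-main (-3.07), endothelial-like (-1.60) and immune-like nuclei (-4.26, with 1 cKO UMI). In Ctrl endothelial-like nuclei Pde10a stood at 61.6% and Ttn at 61.8% of the myonuclear level, and the part of free fibre RNA in the value was not tested. The Pde7b ratio was above 0 in endothelial-like (0.37) and satellite-like nuclei (1.29). It was below 0 in Myh7-main (-0.53), Myh2-main (-0.71), Myh1-main (-0.72), Myh4-main (-0.35) and immune-like nuclei (-1.71, 47 and 6 UMIs). The satellite-like values rest on 22 Ctrl and 9 cKO nuclei.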

How the results depend on the processing

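Over 40 log2 ratios and 306 alternatives, 289 had the direction of the value reported, 0 called values changed sign and 66 moved beyond the counting interval. No paired analysis was possible because each group was 1 library, and for the same reason no replicate could be left out. For Pde10a over all myonuclei the log2 ratio was -2.44 as a mean of single-nucleus CPM, -2.53 with Ctrl class shares, -2.14 with myonuclei defined without clusters and -2.46 after thinning to 1000 UMIs. Without the cluster with type I markers it was -3.08, with -2.70 in Myh1-main and -3.72 in Myh4-main nuclei, and 2 members in place of 3 were lower by 1.5-fold over all myonuclei. With 80% of 5 myosin UMIs required it was -0.66 in Myh7-main (4 and 47 UMIs), -0.51 in Myh2-main and -3.33 in Myh4-main nuclei, and with the class read at 500 UMIs it was -3.19 (7 and 22 UMIs), -0.018 and -2.72 in these classes and -2.30 in Myh1-main nuclei. The mean of single-nucleus CPM gave -3.34 in Myh4-main nuclei and -0.13 outside the fibres, where keeping doublets gave -0.84 and at least 1000 UMIs per nucleus -0.83. The share of myonuclei with a Pde10a UMI differed by -24.0 points, by -16.0 at 500 UMIs and by -37.1 without thinning. Thinning to 1000 UMIs put the Pde3b ratio past 1.5-fold on the high side (0.87), while myonuclei defined without clusters put it past 1.5-fold on the low side (-0.81). Pde3b held 38 and 35 UMIs before thinning, and its count after thinning is not given, so 0.87 is not read as a call. The cause of these shifts was not tested. The Myh7-main values are limited by the 19 Ctrl nuclei, and Pde3a, Pde3b and Pde9a in fibres by their few UMIs.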
